A study of Tachysurus fulvidraco x Tachysurus vachelli with 6 samples.

Results

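The genes described here are those of the tumor necrosis factor (TNF) family in the gill of a hybrid yellow catfish. They were chosen by the product name in the deposited annotation: every gene whose first product name contains "tumor necrosis factor" or "TNF receptor-associated factor". This gave 85 of the 25792 genes in the deposited table, namely 12 ligands, 40 receptors, 8 TNF receptor-associated factors (TRAFs, the adaptors) and 25 others. The others are TNF-induced proteins, homologs of the lipopolysaccharide-induced TNF-alpha factor (LITAF) and C1q/TNF-related proteins, which carry TNF in their name without being ligands or receptors. The samples were the second left gills of juvenile fish from Tachysurus fulvidraco females and P. vachellii males. There were 3 libraries from fish transported for 16 h, and 3 from untreated fish, called controls below. The labels give no further genotype, no age beyond the juvenile stage and no transport conditions, and they do not say whether a library is 1 fish or a pool. The p-values therefore speak only of the variation among these 6 libraries, which may in part be technical.

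TNF ligands are trimeric cytokines, mostly held in the cell membrane, that bring receptor chains together on the target cell. Receptors with a death domain can start apoptosis or necroptosis, and most others bind TRAF proteins, many of which are ubiquitin ligases, and lead to NF-kB and MAP kinase signalling. In fish, as in mammals, TNF itself is an early cytokine of inflammation, and the gill is a mucosal surface rich in leukocytes that is in constant contact with water.

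The 6 libraries held between 42962760 and 58495713 estimated counts. The ammonia channel gene rhcg, which marks gill epithelium, lay between 112 and 175 FPKM (fragments normalised for transcript length and sequencing depth), and foxi1, a transcription factor gene of ionocytes, between 13 and 21.2 FPKM. The chloride channel gene cftr, a marker of chloride-secreting ionocytes, was low, between 0.08 and 0.64 FPKM. Of the 85 members, 83 had enough counts to be tested with edgeR, and c1qtnf4 and the LITAF homolog LOC113636441 did not. Only 24 of the 85 carried a symbol, and the rest are given by locus number with the product name of the table. Several receptors and the LITAF homologs share product names and KEGG orthology entries. Whether reads were shared between such genes was not tested, and their separate values are uncertain to that extent.

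After transport, 2 members were higher and 4 lower at an adjusted p under 0.05 (edgeR quasi-likelihood test, Benjamini-Hochberg over 20771 genes). The higher genes were the receptor LOC113634303 (TNF receptor superfamily member 14-like) and the LITAF homolog LOC113663315. The lower genes were the receptors LOC113657188 (member 1B-like) and LOC113647936 (member 6B-like), tnfaip8l3, and LOC113652485, a C1q/TNF-related gene. No ligand and no TRAF passed by edgeR in this fit. With the counts divided by 4, edgeR called 1 TRAF, traf4, and no ligand, and 9.18% of all genes. With the undivided counts it called 6.69% of all genes. At an unadjusted p under 0.05 there were 5 ligands and 1 TRAF, and DESeq2 called 2 ligands (LOC113634667 and tnfsf12) and 1 TRAF (traf4), with 14.7% of all genes called by DESeq2. The 6 calls were 7.23% of the members tested, near the 6.69% called among all genes, and by direction 2.41% were higher and 4.82% lower, against 3.23% and 3.46% of all genes. At an unadjusted p under 0.05 there were 14 higher and 12 lower members, 31.3% of those tested, against 25.0% of all genes, of which 12.3% were higher and 12.7% lower. Transport and control FPKM values were fully separate in 31 members (37.3%, against 32.7% of all genes), with 18 higher after transport (17.6% of all genes) and 13 lower (15% of all genes). The median log2 fold change was -0.05 over the members and 0.00 over all genes tested. In the settings that left out 1 library each, the share of all genes called moved as well. Without transport replicate 2, 0 members were called, with 0.0141% of all genes. It was 1 member without transport replicate 3 (1.18%, against 0.758% of all genes). Without transport replicate 1 there were 3 (3.53%, against 1.86%), and without control replicate 3 also 3 (3.57%, against 1.77%). Without control replicate 1 there were 7 (8.33%, against 7.01%), and without control replicate 2 there were 10 (11.9%, against 4.4%). The 6 members called with all libraries kept their direction in each of those fits. Since their groups did not overlap, this could hardly have been otherwise.

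**Figure D1:**
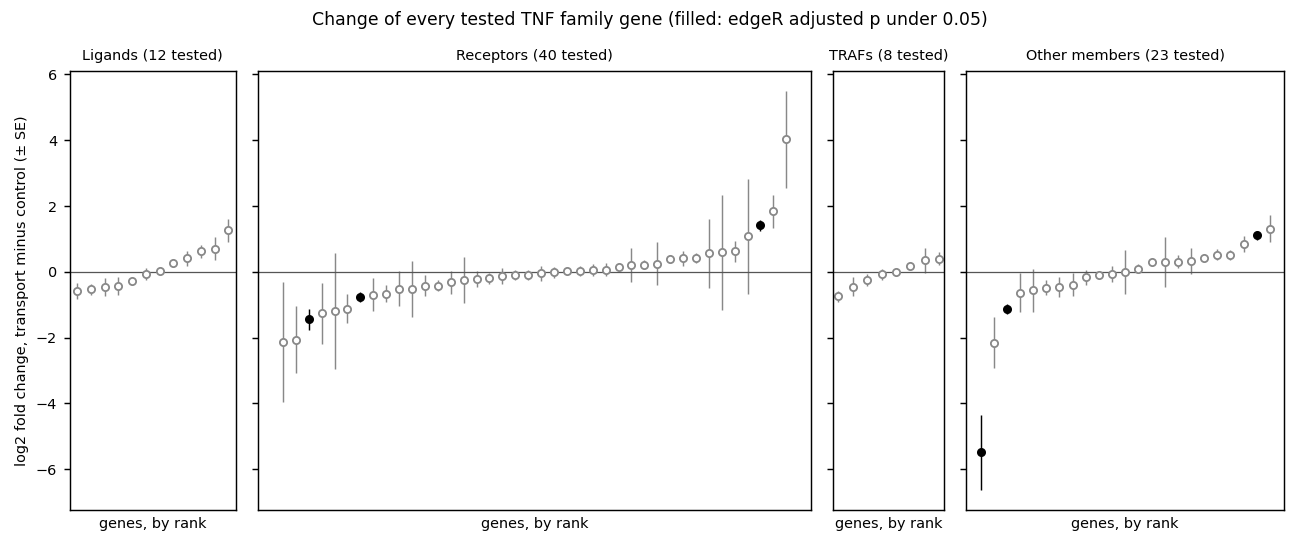
Log2 fold change (transport minus control, ± SE from edgeR, y axis) of the 83 tested members, ranked within ligands, receptors, TRAFs and other members (x axis), with filled points for the 6 genes at an adjusted p under 0.05. Most points lie close to 0, and the ligand and TRAF panels hold no filled point.

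**Figure D2:**
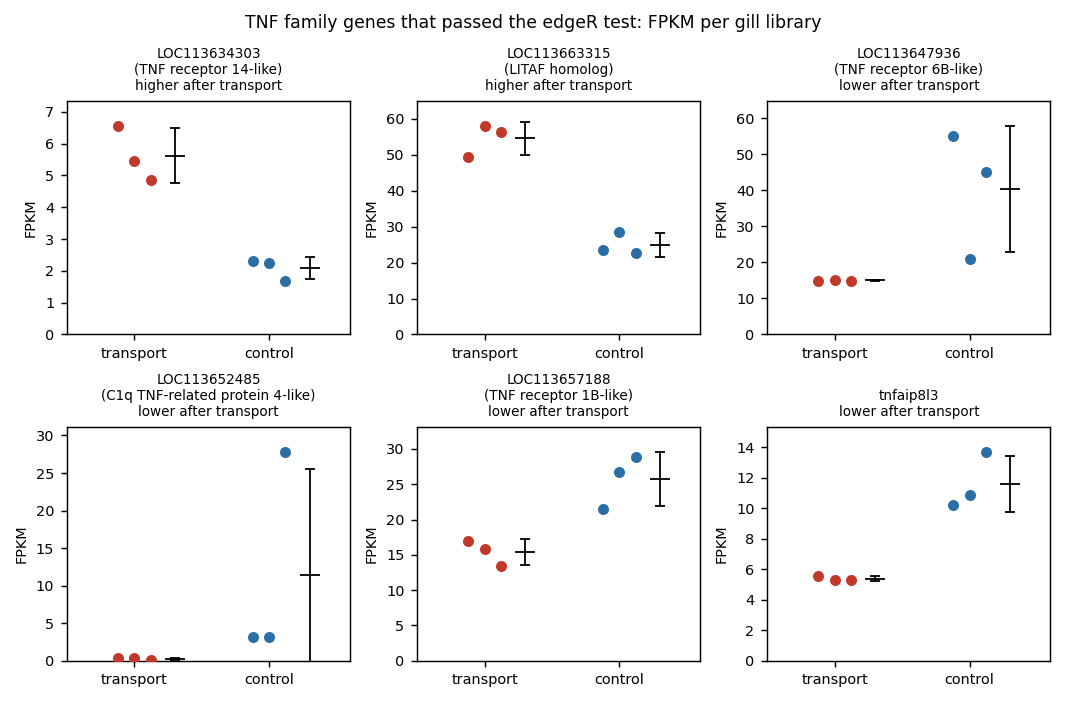
FPKM (y axis, from 0) in each of the 3 transport libraries (red) and 3 control libraries (blue) for the 6 called members, with the mean ± SD beside the points. The groups do not overlap in any of the 6 panels, and the control values of LOC113652485 and LOC113647936 are widely spread, so that the lower end of the SD bar of LOC113652485 falls below 0, outside the axis.

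Ligand transcripts were of low to moderate level, and their mean over the 6 libraries ranged from 0.750 to 18.6 FPKM with a median of 5.06. Summed over the 12 genes, the ligands stood at 89.2, 92.7 and 82.1 FPKM in transport replicates 1, 2 and 3 and at 96.4, 79.3 and 84.6 FPKM in the controls. Of the 12 log2 fold changes 6 were positive and 6 negative, with a median of -0.02. Both genes named tumor necrosis factor-like lay higher in every transport library without passing the test. LOC113634667 (NW_020848162.1, 3524056 to 3525784) had 3.36, 4.06 and 2.80 FPKM after transport, against 1.04, 1.21 and 1.89 FPKM in the controls. The groups were separate, and the log2 fold change of 1.27 (SE 0.35, adjusted p = 0.0758 by edgeR) was the largest among the ligands. The gene passed with DESeq2 (adjusted p = 0.0196) and with limma on log2(FPKM + 1) (adjusted p = 0.0426), so its call depended on the tool. It rested on few reads, with 63 estimated counts in control replicate 1. LOC113642755 (NW_020847785.1, 8509276 to 8511625) had 6.05, 5.31 and 5.23 FPKM after transport, against 3.54, 2.88 and 4.26 FPKM in the controls (log2 fold change 0.62 with SE 0.21, adjusted p = 0.127 by edgeR). The table gives this pair different KEGG orthology entries, K03156 for LOC113634667 and K05468 for LOC113642755. Whether both are copies of TNF itself was not tested.

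The most abundant ligand gene was tnfsf11, whose mammalian product RANKL drives the formation of bone-resorbing osteoclasts. It had 20.3, 21.5 and 19.8 FPKM in the transport libraries and 19.4, 15.8 and 15.2 FPKM in the controls, groups that are separate by a narrow gap (log2 fold change 0.27 with SE 0.13, adjusted p = 0.240 by edgeR). The gene of the B-cell survival factor BAFF, tnfsf13b, had 4.24, 7.21 and 9.32 FPKM after transport and 5.80, 3.00 and 3.91 FPKM in the controls. Here the lowest transport library lay below the highest control (log2 fold change 0.70 with SE 0.35, adjusted p = 0.267 by edgeR). LOC113635329, named for the related ligand APRIL (member 13-like), averaged 3.16 ± 0.494 FPKM after transport and 2.35 ± 0.296 FPKM in the controls (SD, n = 3 each).

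The gene of the growth and inflammation ligand TWEAK, tnfsf12, had 12.3, 11.2 and 8.46 FPKM after transport, against 16.8, 13.3 and 15.4 FPKM in the controls (log2 fold change -0.53 with SE 0.16, adjusted p = 0.102 by edgeR). LOC113663199, the most abundant of 3 genes annotated as the death ligand TRAIL (member 10-like), had 12.6, 12.3 and 11.3 FPKM against 15.9, 14.1 and 13.7 FPKM in the controls (log2 fold change -0.29 with SE 0.10, adjusted p = 0.126 by edgeR). Both genes were separate between the groups and neither passed edgeR's test, while tnfsf12 passed with DESeq2 (adjusted p = 0.038). LOC113661949, annotated as LIGHT (member 14, a ligand of HVEM in mammals), averaged 1.77 ± 0.395 FPKM after transport and 2.63 ± 0.222 FPKM in the controls (edgeR adjusted p = 0.186). The Fas ligand gene faslg, which triggers apoptosis in target cells, averaged 3.98 ± 0.141 FPKM after transport and 4.09 ± 0.888 FPKM in the controls, with a log2 fold change of -0.06 (SE 0.19). A further ligand named member 6-like, LOC113646620, averaged 6.58 ± 2.13 FPKM after transport and 8.68 ± 1.65 FPKM in the controls (log2 fold change -0.42, SE 0.27). Its groups overlapped, and it carries the KEGG orthology entry K05477, as does LOC113661949.

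**Figure D3:**
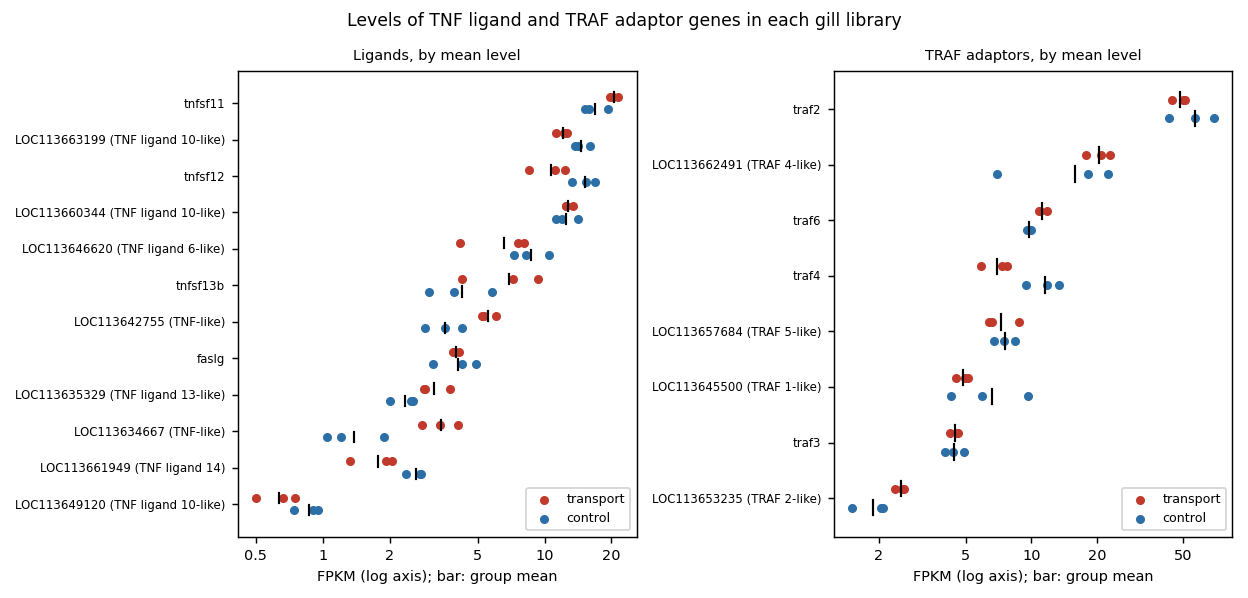
FPKM per library (x axis, log scale) of the 12 ligand genes and 8 TRAF genes (y axis, ordered by mean level), transport in red above control in blue, with a bar at each group's mean. The ligand tnfsf11 and the adaptor traf2 lead their panels, and the TNF-like gene LOC113634667 has the largest fold change among the ligands.

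The receptors spanned a wider range of levels than the ligands, from 0.193 to 62.0 FPKM in their mean over the 6 libraries (median 5.61). The most abundant was LOC113644877, named for the death-domain receptor of TNF (member 1A-like). It had 64.4, 62.8 and 61.1 FPKM after transport and 59.8, 60.3 and 63.9 FPKM in the controls, so that the libraries differed little in either group (log2 fold change 0.02 with SE 0.08, adjusted p = 0.934 by edgeR). That direction turned in 2 of the fits that left out a library.

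LOC113657188 (NW_020848002.1, 1032454 to 1044506), named for the receptor of TNF that lacks a death domain (member 1B-like), fell after transport. It had 16.95, 15.9 and 13.4 FPKM in the transport libraries, against 21.5, 26.8 and 28.9 FPKM in the controls. The groups did not overlap (log2 fold change -0.76 with SE 0.15, adjusted p = 0.0339 by edgeR). The call held without control replicate 1 (0.0188) and was lost without any other library, with edgeR adjusted p from 0.0672 without transport replicate 1 to 0.152 without transport replicate 2. A further 1B-like gene, LOC113642675, averaged 19.1 ± 0.319 FPKM after transport and 20.1 ± 4.42 FPKM in the controls (log2 fold change -0.09, SE 0.16). The table gives it the same KEGG orthology entry, K05146, as both genes named member 9-like.

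LOC113647936 (NW_020847763.1, 8470035 to 8471827), named member 6B-like after a soluble decoy receptor that binds Fas ligand in mammals, also fell. It had 14.9, 15.1 and 14.9 FPKM in the transport libraries, against 55.1, 21.0 and 45.0 FPKM in the controls. All transport libraries lay close together below the lowest control, while the controls were widely spread (log2 fold change -1.44 with SE 0.32, adjusted p = 0.0469 by edgeR). The call held without control replicate 2 (0.00878). It was lost without each other library, with values of 0.0715 without control replicate 1, 0.124 without control replicate 3, and 0.113, 0.182 and 0.156 without transport replicates 1, 2 and 3. The genes named for Fas (member 6-like), the death receptor of Fas ligand, were LOC113662074 and LOC113634174. LOC113662074 averaged 22.5 ± 2.32 FPKM after transport and 23.7 ± 4.17 FPKM in the controls. LOC113634174 averaged 9.76 ± 1.31 FPKM after transport and 8.29 ± 0.775 FPKM in the controls. The table gives it the same orthology entry, K04722, as LOC113639514, named for a TRAIL receptor (member 10B-like).

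On the same scaffold as the 6B-like gene lies LOC113647894 (8448623 to 8463267), named for osteoprotegerin (member 11B-like), the decoy receptor of RANKL. It averaged 5.95 ± 0.280 FPKM after transport and 7.86 ± 1.23 FPKM in the controls, with separate groups but no call (log2 fold change -0.42 with SE 0.17, adjusted p = 0.190 by edgeR). The RANK gene tnfrsf11a, the signalling receptor of that ligand, averaged 6.87 ± 1.40 FPKM after transport and 6.46 ± 0.999 FPKM in the controls. The costimulatory receptor gene LOC113658166 (member 9-like) had 25.8, 28.8 and 30.5 FPKM after transport, against 21.1, 19.6 and 24.1 FPKM in the controls (log2 fold change 0.38 with SE 0.12, adjusted p = 0.117 by edgeR). LOC113641992, the most abundant gene named for CD40 (member 5-like), a receptor of antigen-presenting cells, had 51.7, 44.3 and 40.9 FPKM against 32.0, 30.3 and 38.6 FPKM in the controls (log2 fold change 0.42 with SE 0.14, adjusted p = 0.119 by edgeR). Both were separate and higher without passing the test. The ectodysplasin receptor gene edar, which acts in the development of skin appendages, averaged 2.13 ± 0.464 FPKM after transport and 2.43 ± 0.501 FPKM in the controls.

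A low-level receptor was also separate between the groups. LOC113640179 (member 10C-like, named for a decoy receptor of TRAIL) had 0.38, 1.10 and 1.51 FPKM after transport and was listed at 0, 0.16 and 0 FPKM in control replicates 1, 2 and 3 (edgeR adjusted p = 0.149). DESeq2 called it (adjusted p = 0.0368), as did limma on log2(FPKM + 0.1) but not on log2(FPKM + 1). It rested on 17, 56 and 74 estimated counts after transport and 0, 10 and 0 in the controls. LOC113640179 is named here after its values were seen. The other 10C-like gene, LOC113657990, averaged 11.9 ± 1.40 FPKM after transport and 15.7 ± 6.73 FPKM in the controls. Both 10C-like genes carry the KEGG orthology entry K05148, as does the 11B-like gene LOC113647894.

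Of the 40 receptor genes, 16 are named member 5-like or 14-like, after CD40 and the herpesvirus entry mediator HVEM, and 14 of those lie in 2 runs of neighbouring genes. Each run holds 7 members, all on the minus strand, and 1 further gene: 127 kb of scaffold NW_020848146.1 (865548 to 993001) and 61.4 kb of scaffold NW_020848319.1 (7 to 61363). The table assigns 13 of these 14 genes the KEGG orthology entry K05152, which it gives to 14 genes in all, although their product names differ. All genes of both runs are described below, most of them outside the rule for named genes.

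The called gene LOC113634303 (NW_020848146.1, 898001 to 916008, member 14-like) belongs to the first run. It had 6.56, 5.45 and 4.86 FPKM in the transport libraries, against 2.32, 2.24 and 1.68 FPKM in the controls, and the groups lay well apart. The gene rose 2.66-fold (log2 fold change 1.41 with SE 0.18, adjusted p = 0.0136 by edgeR) and kept its call without every single library but transport replicate 2 (0.0946). Its neighbour LOC113634305 (881083 to 896798, member 5-like) had 12.8, 9.16 and 7.38 FPKM after transport, against 1.43, 5.07 and 1.56 FPKM in the controls. It was not called (log2 fold change 1.84 with SE 0.51, adjusted p = 0.0790 by edgeR), but DESeq2 called it with all 6 libraries (adjusted p = 0.0316). Without control replicate 2, the control that is high, edgeR called it (0.0145). Without any other single library edgeR gave 0.128 to 0.212.

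Control replicate 2 stood apart from the other controls in further genes of this run. LOC113634309 was listed at 0 FPKM in control replicates 1 and 3 and at 3.15 FPKM in control replicate 2, with 2.28, 2.59 and 1.94 FPKM in the transport libraries. LOC113634312 had 0.43 FPKM in both of those controls and 6.57 FPKM in control replicate 2, with 4.74, 2.34 and 4.06 FPKM after transport. Without control replicate 2 both became called (edgeR adjusted p = 0.00925 and 0.0414), against 0.754 and 0.789 with all libraries. Without any other single library edgeR gave 0.811 to 0.894 for LOC113634309 and 0.81 to 0.988 for LOC113634312. Leaving out the control that goes against the difference lowers p by itself, so these calls do not show an effect of transport. LOC113634306, at the end of the run, averaged 11.6 ± 0.554 FPKM after transport and 10.4 ± 0.660 FPKM in the controls, and did not share that pattern. LOC113634310 had 0.87, 1.49 and 1.72 FPKM after transport and 2.51, 0.86 and 3.23 FPKM in the controls, so that control replicate 2 was the lowest control. LOC113634308 stayed under 1 FPKM in all 6 libraries. Summed over the 7 genes, the first run stood at 39.6, 32.9 and 31.6 FPKM after transport, against 17.3, 28.1 and 18.6 FPKM in the controls.

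In the second run all 7 log2 fold changes were negative (median -1.19) and edgeR called none, where 3.46% of all genes were called lower. At an unadjusted p under 0.05 there were 2 (12.7% of all genes were lower), and DESeq2 called 1, LOC113639436 (adjusted p = 0.0465, 14.7% of all genes called). LOC113639438 had 0.14, 5.22 and 8.47 FPKM in transport replicates 1, 2 and 3, against 23.6, 15.1 and 19.2 FPKM in the controls. The groups were separate, but the transport libraries themselves differed widely (log2 fold change -2.07 with SE 1.02, adjusted p = 0.265 by edgeR). LOC113639436 had 1.63, 4.84 and 6.37 FPKM against 10.1, 10 and 7.64 FPKM in the controls, and LOC113639440 had 2.71, 4.22 and 4.48 FPKM against 6.95, 4.65 and 6.26 FPKM. In these 3 genes transport replicate 1 was the lowest of all libraries. Control replicate 2 was low in others: LOC113639435 had 12.04, 12.4 and 12.6 FPKM after transport and 30.6, 1.35 and 20.3 FPKM in control replicates 1, 2 and 3. It became called without control replicate 2, the control that goes against the difference (edgeR adjusted p = 0.0452, against 0.765 with all libraries). Without any other single library edgeR gave 0.831 to 0.935.

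LOC113639433 and LOC113639434 were listed at 0 in transport replicate 1 and control replicate 2. In the remaining libraries LOC113639433 reached 0.59 and 2.21 FPKM after transport and 5.48 and 7.20 FPKM in the controls. LOC113639434 reached 0.26 and 1.59 FPKM after transport and 1.55 and 2.79 FPKM in the controls. LOC113639439 had 0.18, 1.77 and 1.05 FPKM after transport and 5.04, 0.95 and 1.25 FPKM in the controls. The sum over the 7 genes was 16.7, 29.3 and 36.7 FPKM after transport, against 83.4, 32.1 and 64.6 FPKM in the controls. Transport replicate 1 thus had the highest sum of the first run and the lowest of the second, and control replicate 2 the highest of the controls in the first and the lowest of the controls in the second. On another scaffold, LOC113634355 (member 27-like) was listed at 0 in control replicates 1 and 3 and had 0.97 FPKM in control replicate 2, with 0.60, 0.17 and 0.70 FPKM after transport.

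**Figure D4:**
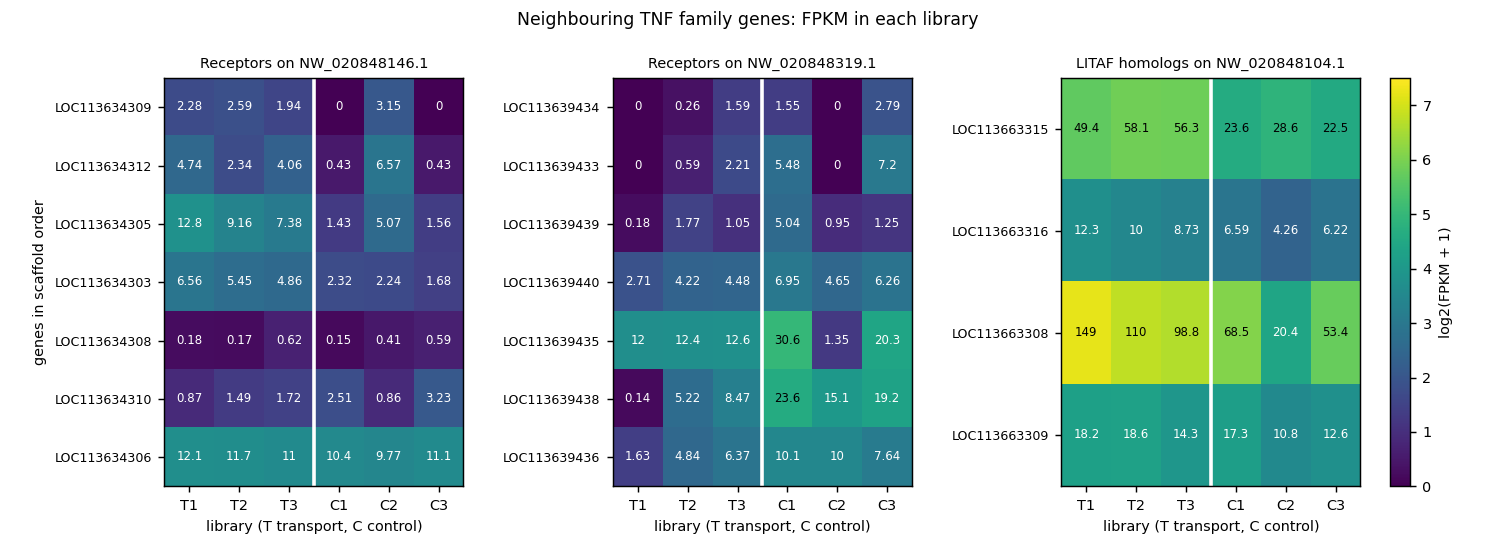
FPKM of neighbouring members in each library, with genes in scaffold order (y axis) and libraries T1 to T3 (transport) left of C1 to C3 (control) on the x axis; colour shows log2(FPKM + 1) and the printed numbers are FPKM. In the left panel C2 resembles the transport libraries in the top rows, in the middle panel T1 or C2 is at or near 0 in several rows, and in the right panel all but LOC113663309 are higher in every transport library.

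Summed over the 8 TRAF genes, levels were 107, 106 and 105 FPKM in transport replicates 1, 2 and 3 and 100.4, 109 and 133 FPKM in the controls. The most abundant was traf2, an adaptor of both TNF receptors, with 44.4, 49.6 and 50.7 FPKM after transport and 43.2, 56.4 and 69.3 FPKM in the controls (log2 fold change -0.24 with SE 0.18, adjusted p = 0.453 by edgeR). The adaptor with the smallest p was traf4, which in mammals acts in epithelial and neural development. It had 7.72, 5.85 and 7.32 FPKM after transport, against 9.49, 11.9 and 13.4 FPKM in the controls. The groups were separate, and the gene missed the threshold narrowly (log2 fold change -0.75 with SE 0.18, adjusted p = 0.0529 by edgeR). It passed edgeR without control replicate 1 (0.0318) and with the counts divided by 4, and it passed with DESeq2 (adjusted p = 0.00313). Without any other single library edgeR gave 0.094 to 0.196.

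LOC113662491, a TRAF4-like copy, had 22.9, 20.9 and 17.8 FPKM after transport and 18.2, 6.97 and 22.5 FPKM in the controls, where control replicate 2 again was the low one (log2 fold change 0.35, SE 0.38). The gene of the E3 ligase that serves both Toll-like receptors and CD40, traf6, had 10.99, 11.8 and 10.8 FPKM against 9.72, 9.52 and 9.99 FPKM in the controls. This difference was small but separate (log2 fold change 0.18 with SE 0.10, adjusted p = 0.318 by edgeR). The gene of a brake on non-canonical NF-kB signalling, traf3, averaged 4.45 ± 0.195 FPKM after transport and 4.43 ± 0.452 FPKM in the controls. The 3 TRAF genes not yet named had means over all libraries from 2.20 to 7.41 FPKM, and edgeR called none of them, with all libraries or without any single one.

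LITAF proteins sit on endosomes and lysosomes and were first described for their induction by bacterial lipopolysaccharide. Of the 7 LITAF genes 6 were tested. The untested LOC113636441 was at 0 FPKM in all transport libraries and at 0.28, 0.26 and 0 FPKM in control replicates 1, 2 and 3. Each of the 6 tested genes had a positive log2 fold change (median 0.68, against 0.00 over all genes). By edgeR 1 was called higher, where 3.23% of all genes were, and in 5 the groups were separate and higher, where 17.6% of all genes were. DESeq2 called 4 (LOC113663315, LOC113663308, LOC113663316 and LOC113649185), where it called 14.7% of all genes. The sum over the 7 genes was 512, 465 and 445 FPKM after transport, against 309, 301 and 283 FPKM in the controls, so that all transport sums lay above all control sums. The called gene LOC113663315 (NW_020848104.1, 194617 to 196725) had 49.4, 58.1 and 56.3 FPKM in the transport libraries, against 23.6, 28.6 and 22.5 FPKM in the controls. It rose 2.17-fold, with groups well apart (log2 fold change 1.11 with SE 0.14, adjusted p = 0.0122 by edgeR). The call was lost without transport replicate 2 (0.0946) or transport replicate 3 (0.0580).

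That gene is 1 of 4 LITAF homologs within 104 kb of NW_020848104.1 (194617 to 298851), a span that also holds 4 other genes, 3 of them named leucine-rich repeat extensin-like. LOC113663308 had the highest mean of these 4 over all libraries, although LOC113663315 was higher in control replicate 2. The values of LOC113663308 were 149, 109.9 and 98.8 FPKM after transport against 68.5, 20.5 and 53.4 FPKM in the controls (log2 fold change 1.31 with SE 0.41, adjusted p = 0.103 by edgeR). LOC113663316 had 12.3, 10.01 and 8.73 FPKM against 6.59, 4.26 and 6.22 FPKM in the controls (log2 fold change 0.84 with SE 0.25, adjusted p = 0.0923 by edgeR). LOC113663309, the remaining homolog there, had 18.2, 18.6 and 14.3 FPKM after transport and 17.3, 10.8 and 12.6 FPKM in the controls, and its groups overlapped. In 3 of the 4 genes control replicate 2 was the lowest of all libraries.

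On other scaffolds, litaf itself had 159.5, 156 and 157 FPKM after transport, against 119, 139 and 122 FPKM in the controls (log2 fold change 0.30 with SE 0.10, adjusted p = 0.109 by edgeR). The homolog LOC113649185 had 124, 112 and 109 FPKM against 74.6, 97.1 and 65.8 FPKM in the controls (log2 fold change 0.52 with SE 0.15, adjusted p = 0.0868 by edgeR). It passed edgeR without control replicate 2 (0.0315), the highest control. Without any other single library edgeR gave 0.164 to 0.241.

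Among the genes named for their induction by TNF, tnfaip8l3 fell after transport. Its mammalian product carries phosphoinositide lipids between membranes. The gene (NW_020848384.1, 142112 to 161035) had 5.56, 5.30 and 5.29 FPKM in the transport libraries, against 10.2, 10.9 and 13.7 FPKM in the controls. The transport libraries were tightly grouped below all controls (log2 fold change -1.12 with SE 0.15, adjusted p = 0.0138 by edgeR), and the call was lost without transport replicate 2 (0.102) or transport replicate 3 (0.0677). Its relative LOC113644382 (8-like protein 2 B), named for a negative regulator of innate and T-cell immunity, averaged 45.7 ± 1.35 FPKM after transport and 48.4 ± 4.79 FPKM in the controls.

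The gene tnfaip3 encodes A20, a ubiquitin-editing enzyme that is induced by NF-kB and limits its activity. It had 22.8, 18.2 and 17.1 FPKM after transport, against 16.4, 12.4 and 11.3 FPKM in the controls, so that the lowest transport library lay just above the highest control (log2 fold change 0.52 with SE 0.17, adjusted p = 0.121 by edgeR). LOC113639741 (TNF alpha-induced protein 2-like) had 10.03, 10.8 and 11.3 FPKM against 8.2, 8.13 and 7.41 FPKM in the controls (log2 fold change 0.42 with SE 0.10, adjusted p = 0.0553 by edgeR). It was called by DESeq2 (adjusted p = 0.0147) and by edgeR with the counts divided by 4 (adjusted p = 0.0478). On the same scaffold, tnfaip2 had 55.8, 51.3 and 50.8 FPKM after transport and 72.8, 25.1 and 27.2 FPKM in the controls, where control replicate 1 exceeded all transport libraries. It passed without control replicate 1, the control that goes against the difference (edgeR adjusted p = 0.00979, against 0.663 with all libraries). Without any other single library edgeR gave 0.763 to 0.942. Further genes named TNF alpha-induced protein 2-like, LOC113644509, LOC113644510 and LOC113662900, had log2 fold changes of -0.40, -0.16 and -0.07. Their groups overlapped and edgeR called none of them. The gene of the hyaluronan-binding protein TSG-6, tnfaip6, stayed under 1.2 FPKM in every library.

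The C1q/TNF-related genes encode secreted proteins with a C1q domain, whose fold resembles that of TNF, and 6 of the 8 are annotated to the collagen trimer term of the Gene Ontology. In 5 of the 8 the mean over all libraries was under 1 FPKM, and of the 7 tested 6 log2 fold changes were negative (median -0.56). LOC113652485 (NW_020847924.1, 5471775 to 5474508, protein 4-like, marked as a low-quality model in the table) had 0.37, 0.32 and 0.07 FPKM after transport, against 3.10, 3.18 and 27.8 FPKM in the controls. The groups did not overlap, but control replicate 3 held most of the signal (log2 fold change -5.49 with SE 1.15, adjusted p = 0.0407 by edgeR). Without control replicate 3 the log2 fold change was -3.62 and the adjusted p 0.0678. The call was also lost without transport replicates 1, 2 and 3 (0.0977, 0.170 and 0.141), and the transport values rest on 4 to 19 estimated counts. The gene c1qtnf2 had 0.04, 0.28 and 0.12 FPKM against 0.89, 0.55 and 0.55 FPKM in the controls, also separate (log2 fold change -2.15 with SE 0.77, adjusted p = 0.141 by edgeR).

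Genes of the TNF and NF-kB pathway outside the family were taken from a list of 68 symbols, of which 47 had a row, all tested. The match was by symbol alone, and genes given only by locus number were not searched. Of these, 3 were higher and 1 lower after transport, with a median log2 fold change of -0.01, and 6.69% of all genes were called. The kinase gene map2k4, which activates JNK, had 28.2, 28.7 and 26.9 FPKM in the transport libraries, against 11.7, 14.98 and 14.9 FPKM in the controls (log2 fold change 0.99 with SE 0.12, adjusted p = 0.0122 by edgeR). The nuclear NF-kB cofactor gene nfkbiz had 161, 145 and 130.1 FPKM against 85.0, 80.6 and 62.9 FPKM (log2 fold change 0.91 with SE 0.14, adjusted p = 0.0188 by edgeR). The death-domain adaptor gene fadd, which links Fas to caspase-8, had 9.48, 10.6 and 10.9 FPKM against 7.48, 6.74 and 7.49 FPKM (log2 fold change 0.50 with SE 0.11, adjusted p = 0.0490 by edgeR). All 3 were higher in each transport library than in any control. The kinase gene map3k5, known as ASK1, fell to 7.47, 6.78 and 5.90 FPKM after transport, against 10.01, 10.2 and 9.71 FPKM in the controls (log2 fold change -0.59 with SE 0.11, adjusted p = 0.0317 by edgeR). The gene of the NF-kB inhibitor IkB-alpha, nfkbia, had the next smallest p and was not called, at 189, 192 and 211 FPKM after transport and 240.9, 274 and 324.9 FPKM in the controls (edgeR adjusted p = 0.0622). The calls of these genes were no firmer than those of the family: map2k4 kept its call in 4, nfkbiz in 3, map3k5 in 1 and fadd in 0 of the 6 fits that left out 1 library.

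**Figure D5:**
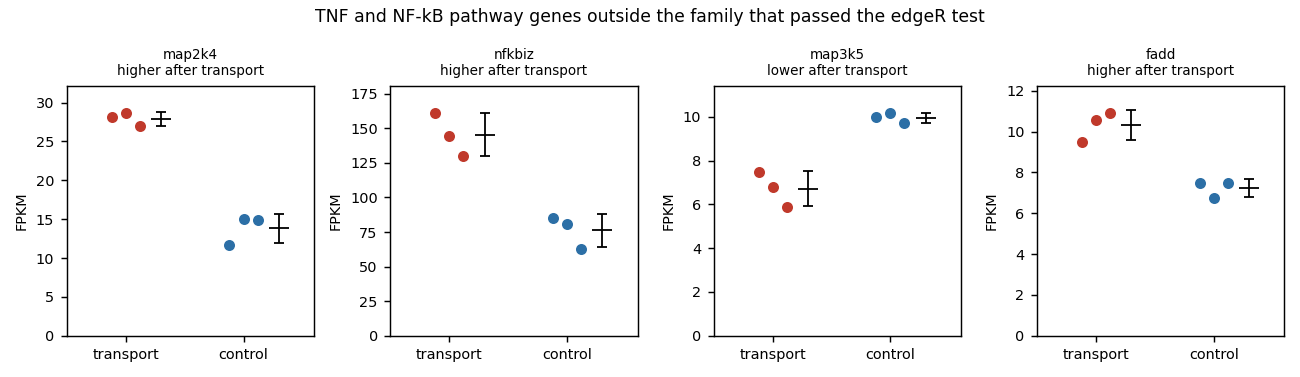
FPKM (y axis, from 0) of the 4 called genes of the pathway list in each transport library (red) and control library (blue), with mean ± SD beside the points. In each panel the groups are separate; map2k4, nfkbiz and fadd are higher and map3k5 is lower after transport.

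Many members are expressed by leukocytes, endothelium and epithelium, and in a whole gill fewer cells of a type and less RNA per cell cannot be told apart. For the marker counts below, edgeR called 3.23% of all genes higher and 3.46% lower. Of 12 B-cell markers 7 had a row, of which 4 (pou2af1, bank1, cd79a and pax5) were lower and none higher after transport by edgeR. The summed level of the 7 ranged from 59.1 to 61.1 FPKM after transport and from 76.3 to 84.3 FPKM in the controls. Of 22 markers of neutrophils and macrophages 10 had a row, of which 1 (lyz) was higher and none lower, with sums from 425 to 463 FPKM after transport and from 424 to 493 FPKM in the controls. None of the 7 T-cell and natural killer markers with a row, of 20, passed edgeR, and 0 had an unadjusted p under 0.05; their sums ranged from 133 to 206 FPKM after transport and from 117 to 221 FPKM in the controls. Of 14 endothelial and pillar cell markers (of 20) 1 was lower, with sums of 108 to 141 FPKM after transport and 130 to 174 FPKM in the controls. Of 9 epithelial markers (of 18) 2 were higher and 2 lower, with sums of 2420.4 to 2517 FPKM after transport and 2624 to 3238 FPKM in the controls. Of 3 erythrocyte markers (of 18) 2 (hmbs and slc25a37) were higher, with sums of 94.2 to 104 FPKM after transport and 103 to 115 FPKM in the controls. Most of these sums was rhag, which was not called, at 75.0 to 83.8 FPKM after transport and 96.0 to 106 FPKM in the controls. Since rhag was also among the gill genes checked here, these sums need not reflect erythrocytes alone. Likewise lcp1 made up much of the neutrophil and macrophage sums, vwf of the endothelial sums, and krt18 and anxa1 of the epithelial sums. The sums of 8 skeletal muscle markers (of 23), none of them called and 0 at an unadjusted p under 0.05, ran from 46.5 to 188 FPKM after transport and from 50.5 to 218 FPKM in the controls, highest in control replicate 1. Markers too were matched by symbol alone, so a marker without a row may be present under a locus number that was not searched. No marker with a row was at 0 in all libraries. In the 6 fits that left out 1 library, pou2af1 and hmbs kept their call in 5 and lyz in 4. The call held in 3 for bank1, cd79a and pax5, and in 2 for the epithelial tp63, anxa1 and evpl. It held in 1 for slc25a37 and in 0 for the endothelial flt4 and the epithelial grhl1. The part of these cell types in the changes above was not tested.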

How the data were processed

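RNA sequencing of 6 gill libraries was analysed from 1 deposited table with a count and an FPKM for each gene and library. HISAT and StringTie were used, per the submitters' processing notes, which state no version; the sources used here do not give build, annotation version or strand. The authors' deposited counts, all whole, were handled as estimated counts. In every library the value 4 was several times as frequent as 3 or 5 (427 genes against 113 and 81 in control replicate 1), so a fragment may have added about 4 units, and counting error is larger than the counts imply. The FPKM values are those the authors deposited, rounded to 3 or more significant digits, with means ± SD over 3 libraries. Low values were deposited with fewer digits, such as 0.04 FPKM for c1qtnf2 in transport replicate 1, and their fold changes are coarse to that extent. The product text names Tachysurus fulvidraco proteins for 84 of the 85 members, and the sources used here do not say how alleles of the other parent species were counted.

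Transport was compared with control over all genes by edgeR 4.0.16 in R 4.3.3 (filterByExpr with a minimum count of 10 and total of 15, TMM, two-sided quasi-likelihood F test, no covariates, Benjamini-Hochberg over 20771 genes, threshold 0.05). Counts were already whole, so none was rounded. SE was taken as the absolute log2 fold change over the root of F. The steps were also run on simulated counts with known changes. The outcome is not given here and is not used as support. Alternatives were DESeq2 1.42.0, limma 3.58.1 on log2(FPKM + 1) and log2(FPKM + 0.1), other scalings, no filter, counts divided by 4, and leaving out each library.

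The members and lists were chosen with earlier results of these data known. The genes given with values were all called members, the 15 others with the smallest p, the 3 most abundant of each role and a fixed set of well-known members, 30 in all; further members were named after their values were seen. No sequences are shown, since none was used here.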

Additional observations from a re-analysis of the deposited data

How the results depend on the processing

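The scaling (RLE size factors, upper quartile), the absence of a filter on low counts and counts divided by 4 all left the 6 called members called by edgeR. DESeq2 called 3237 genes, among them 9 members higher and 6 lower after transport, which is 18.3% of its members with an adjusted p against 14.7% of all genes; it gave LOC113652485 no adjusted p. It called 7 genes of the pathway list. LOC113647936 was not called by limma on either scale, and LOC113652485 was not called by limma on log2(FPKM + 1) (adjusted p = 0.0775). On log2(FPKM + 1) limma called 3 members higher and 2 lower, which is 6.02% of the members against 7% of all genes. On log2(FPKM + 0.1) it called 4 higher and 3 lower, 8.43% against 7.07%. Either scale gave 2 called pathway genes. Leaving out single libraries gave 3 to 1498 called genes, 0 to 6 members higher, 0 to 4 lower and 0 to 4 pathway genes. Without transport replicate 2 no member was called by edgeR. There 18 of 84 members had an unadjusted p under 0.05, against 3550 of 21323 genes. The equal replicate numbers showed no positive correlation of deviations (-0.073, -0.030 and -0.044 for replicates 1, 2 and 3). Unequal numbers gave -0.026 to 0.065. With 3 libraries in each group these values cannot decide whether the replicates were paired. With the replicate number as a block 14 genes, 0 members higher, 0 lower and 0 pathway genes were called. In that fit 22 of 83 members had an unadjusted p under 0.05, against 4250 of 20771 genes.

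Among the 30 members named by rule, signs turned in 4, all uncalled. In traf3 the log2 fold change was 0.01 under both limma fits and between -0.10 and 0.07 without single libraries (0.03 without transport replicate 1). In LOC113644877 it ran from -0.02 to 0.05, in LOC113662491 from -0.00 to 0.70 and in faslg from -0.23 to 0.09. The cause of these differences was not tested. Low counts limit LOC113652485, c1qtnf2 and LOC113640179, and whether reads were shared between genes of one product name was not tested.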
